A study of Mus musculus with 4 samples.

Results

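The 3′UTR just after the stop codon was examined for RNA bound by IGF2BP3 in the mouse testis. Its members are clusters of eCLIP reads whose centre lies, on the strand of the transcript, within the first 100 spliced bases of a 3′UTR. With 1 transcript per protein-coding gene and 3′UTRs of at least 300 bases, 15404 of 21951 gene models could hold such a cluster. Of 337234 clusters in replicate 1, 2731 were members, and of 216354 clusters in replicate 2, 2266 were.

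IGF2BP3 is an RNA-binding protein that attaches to mRNAs, mostly in their 3′UTRs, and is known for effects on mRNA stability and translation. It is counted among the readers of N6-methyladenosine (m6A), a methyl mark on adenosine that gathers around stop codons and in the adjoining 3′UTR. Male germ cells make many mRNAs well before they translate them, so that proteins bound to 3′UTRs matter for the timing of spermatogenesis.

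The study mapped RNA contacts of IGF2BP3 in testes by eCLIP, in which RNA is crosslinked to protein by ultraviolet light, cut, and recovered with an antibody. All 4 samples came from wild type C57BL/6 testes of mice 8 weeks old, with germ cells and somatic cells together. In each of 2 replicates, a library immunoprecipitated with the IGF2BP3 antibody (IP) was set against a size-matched input (SMInput), a small share of the lysate that met no antibody. The paper calls the replicates biological, but the labels do not state whether they came from separate animals. The series description speaks of IgG and of more replicates, and the sample labels were followed here. The authors deposited, for each cluster, the log2 ratio of IP to SMInput reads, scaled to library totals, and the −log10 of its P value. The recovered library totals were 5133438 IP and 8706391 SMInput reads in replicate 1, and 4637612 IP and 16696122 SMInput reads in replicate 2. Because the tissue is whole testis, fewer cells of a type and less RNA per cell cannot be told apart in any read number.

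A cluster was called when its log2(fold change) and its −log10(P value) were both at least 2. In replicate 1, 376 of the 2731 members were called, 13.8% (95% Wilson interval 12.5% to 15.1%), against 4.92% of all clusters. In replicate 2, 553 of the 2266 members were called, 24.4% (22.7% to 26.2%), against 13.2% of all clusters. The region after the stop codon thus held called clusters at a higher rate than the whole table in both replicates. The intervals cover counting error only, and clusters are not replicates, so no test was made between them. Thresholds of 3 cut the shares to 3.95% and 5.78%, against 1.18% and 2.42% of all clusters.

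The median log2(fold change) of the members was 1.35 in replicate 1 and 1.59 in replicate 2, beside 1.50 and 1.53 over all clusters. Clusters of 2 to 9 reads had medians of 2.35 and 2.43 over all clusters, above the 1.76 and 2.26 of the members in that class. In every class of 10 or more reads the members had the higher median, such as 1.31 against 1.01 in replicate 1 and 1.43 against 1.02 in replicate 2 for 20 to 49 reads. Members rested on more reads than the usual cluster, with a median of 9 IP and 5 SMInput reads in replicate 1 and 9 IP and 11 SMInput reads in replicate 2. Over all clusters these medians were 4 and 2 reads in replicate 1, and 4 and 6 reads in replicate 2. Members were also wider, with a median of 53 and 57 bases against 42 and 47 bases. Clusters in bases 101 to 300 of these 3′UTRs were much like the members, with median widths of 54 and 58 bases. Their median reads were 9 IP and 5 SMInput in replicate 1 and 10 and 10 in replicate 2. In the last 100 coding bases the median widths were 45 and 48 bases, with 7 IP and 5 SMInput reads in replicate 1 and 7 and 10 in replicate 2. Among clusters with 20 to 49 reads in all, 18.9% of the members of replicate 1 (16.1% to 22.1%) and 15.2% of all clusters were called. In replicate 2, 23.1% of the members (20.2% to 26.3%) and 14.5% of all clusters in this class were called. In all 5 classes of read number, in both replicates, the share called was higher among members than among all clusters. These classes leave out clusters listed at a −log10(P value) of 0 or 400, 201 members of replicate 1 and 68 of replicate 2 at 0 among them, so their shares and medians depend on the outcome. The class of 20 to 49 reads was chosen after the data were seen.

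Few members pointed the other way. Members without enrichment, at a log2(fold change) of 0 or less, made up 5.60% in replicate 1 and 2.87% in replicate 2, beside 8.19% and 6.59% over all clusters. Such clusters were rarer still in bases 101 to 300 of these 3′UTRs, at 4.26% and 1.71%. The last 100 coding bases held more of them, at 9.88% and 6.15%. Among the called members, 9.04% and 6.56% had 1 SMInput read, the lowest number found, against 22.9% and 25.9% of all called clusters.

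Calls varied with position inside the window. In replicate 1, members centred on bases 1 to 25 after the stop codon were called in 11.5% of cases (9.34% to 14.2%) and those on bases 76 to 100 in 17.9% (15.2% to 21.0%). In replicate 2 the same shares were 21.7% (18.4% to 25.4%) and 30.8% (27.2% to 34.6%). Bases 26 to 50 gave 11.9% and 21.1%, and bases 51 to 75 gave 13.8% and 23.8%, so that calls were most frequent in the last bases of the window in both replicates. Some members straddle the end of the coding sequence: 732 in replicate 1 (26.8%) and 629 in replicate 2 (27.8%) reached back to the stop codon or beyond. Of these, 12.8% and 23.2% were called, against 14.1% and 24.9% of the members that lay wholly past it.

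The window is a step on a slope that runs from the coding sequence into the 3′UTR. In the last 100 coding bases, stop codon included, 10.1% of 2773 clusters were called in replicate 1 (9.03% to 11.3%) and 16.2% of 2115 in replicate 2 (14.7% to 17.8%). In bases 101 to 300 of the same 3′UTRs the shares were 20.4% (19.3% to 21.5%) and 33.3% (32.0% to 34.7%). Further back in the coding sequence only 4.86% and 7.51% of clusters were called, and over the whole 3′UTR after base 100 the shares were 21.0% and 37.1%. The window therefore stood between the coding end and the later 3′UTR in both replicates. Median log2(fold change) followed the same order, at 1.22 in the last 100 coding bases, 1.35 in the window and 1.61 in bases 101 to 300 for replicate 1, and at 1.39, 1.59 and 1.85 for replicate 2.

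In steps of 50 bases, replicate 1 went from 8.26% called at bases −99 to −50 to 12.3% at −49 to 0, 11.7% at 1 to 50, 15.9% at 51 to 100 and 20.2% at 101 to 150. Replicate 1 thus did not rise across the stop codon itself. Replicate 2 rose at each of these steps, through 14.5%, 18.3%, 21.4%, 27.3% and 31.9%. From there to base 300 the share stayed between 20.2% and 20.9% in replicate 1 and between 31.9% and 34.6% in replicate 2. Among clusters with 20 to 49 reads, the order held, with 15.1% (12.4% to 18.2%) in the last 100 coding bases, 18.9% in the window and 28.9% in bases 101 to 300 of replicate 1. The interval of the coding end overlaps that of the window in this class. In replicate 2 the same values were 16.6% (13.9% to 19.7%), 23.1% and 33.6%, with overlap of neither step's intervals.

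Density gave another view of the window. It held 1.77 clusters per kilobase in replicate 1 and 1.47 in replicate 2, near the 1.78 and 1.52 in bases 101 to 300 and the 1.80 and 1.37 in the last 100 coding bases. The earlier coding sequence held more, 2.55 and 2.07, and the whole 3′UTR after base 100 fewer, 1.11 and 0.913. Called clusters numbered 0.244 and 0.359 per kilobase in the window, 0.182 and 0.222 in the last 100 coding bases, and 0.362 and 0.506 in bases 101 to 300. By density of called clusters, the stretch just beyond the window was the richer one, and the window was close to the 0.233 and 0.339 of the whole 3′UTR after base 100.

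Genes with clusters in both regions allow a comparison on the same mRNA. Of 2080 genes with clusters in the window and later in the 3′UTR in replicate 1, 1287 (61.9%) had the higher median log2(fold change) in the later part, with a median difference of 0.32. In replicate 2 this was so for 1088 of 1709 genes (63.7%), with a median difference of 0.35. Against the last 100 coding bases the window was more often the higher of the pair. The coding end had the higher median in 317 of 800 genes in replicate 1 (39.6%) and in 222 of 561 in replicate 2 (39.6%), with median differences of −0.21 and −0.24.

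Members lay in 2481 genes in replicate 1 (16.1% of the genes that could hold one) and in 2132 in replicate 2 (13.8%). Called members lay in 349 and 517 genes. A gene was counted as called in both replicates when called members of the 2 tables overlapped by at least 1 base on its strand. This held for 131 genes, which is 37.5% of the genes called in replicate 1, 25.3% of those called in replicate 2, and 11.8% of the 1109 genes with a member in both. St6galnac2 is annotated as 2 genes at a single locus, so 130 gene names stand behind the 131. With the replicate as a block in a test on the reads of overlapping clusters, 253 genes passed, 130 of the 131 among them. This test has other thresholds and its p covers counting error only. It could be run on 1078 of the 1203 member pairs, of which it called 28.5%, and on 69163 of all 93525 pairs, of which it called 20.5%. Pairs with a cluster listed at a −log10(P value) of 0 or 400 give no reads and are missing from both shares. At thresholds of 3, 31 genes were called in both replicates.

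Called members were found again in the other replicate more often than called clusters at large. Any cluster of the other replicate, called or not, was overlapped by 69.9% and 66.9% of the called members, against 53.4% and 41.7% of all called clusters. Of the 376 called members of replicate 1, 181 overlapped a called cluster of replicate 2, 48.1% (43.1% to 53.2%), against 33.0% of all called clusters. Of the 553 of replicate 2, 184 overlapped a called cluster of replicate 1, 33.3% (29.5% to 37.3%), against 18.5% of all. Among those with an overlap of any kind, the called shares were nearer, 68.8% against 61.9% and 49.7% against 44.4%. Across 1203 overlapping pairs of members, the log2(fold change) values of the replicates correlated at r = 0.601 (Pearson) and rho = 0.588 (Spearman). Over all 93525 overlapping pairs of clusters the coefficients were 0.649 and 0.604, so members were no more alike between replicates than other clusters. Both are descriptions over clusters, which share libraries and depth within a replicate. In the 338 member pairs with at least 20 IP and 5 SMInput reads in each replicate, r was 0.750, and 88.8% lay within 1 log2 unit of each other. Pairs called in both replicates made up 14.5% of the member pairs and 7.05% of all pairs, and pairs at or below 0 in both made up 1.08% and 5.95%.

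Sites near the stop codon mostly sat on mRNAs with other called clusters. Of the 131 genes, 83 in replicate 1 and 87 in replicate 2 also had a called cluster in the coding sequence, and 29 and 20 had no other called cluster in the 3′UTR. In 59 and 55 genes the window held the cluster with the largest −log10(P value) of the 3′UTR, and in 35 genes it held that of the whole mRNA in both replicates, with ties settled by the larger fold change. Outside the window, a median of 26.4% and 36.8% of the clusters on these mRNAs were called, against 6.25% and 12.5% on the mRNAs of the 1109 genes with members in both. The genes were chosen by calls in the same libraries, so this is a description. In 3 genes, Cnot2, Lrrc56 and Pdhb, chosen after their values were seen, no other cluster on the mRNA was called in either replicate. Pdhb encodes a subunit of pyruvate dehydrogenase, and Cnot2 a subunit of the CCR4-NOT deadenylase complex. At the other end, every cluster on the mRNA was called in both replicates for 5 of the 131 annotated genes. These were 1700028J19Rik, Gng5, Hoxa4 and both St6galnac2 genes, picked out here after their values were seen.

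Dot1l, a histone H3 methyltransferase, had more members in replicate 1 than any other annotated gene, 5 of them, and all were called. In replicate 2 the most members of a gene were 5, and Dot1l had 3. In each replicate the Dot1l members touch end to end, so together they cover 1 unbroken stretch. The centres in replicate 1 lay at bases 11, 39, 57, 76 and 89 after the stop codon, with 97, 117, 119, 119 and 88 IP reads against 14, 14, 13, 12 and 6 SMInput reads. In replicate 2 the centres of its 3 members lay at bases 3, 50 and 89, with 52, 58 and 42 IP reads against 25, 47 and 19 SMInput reads. Called members thus ran across most of the window in both replicates, and the fold changes were lower in replicate 2. The stop codon of Dot1l lies only 8 bases past the last exon junction, and the window takes chr10:80793515-80793614 on the plus strand. Of 51 clusters on the Dot1l mRNA in replicate 1 and 40 in replicate 2, 8 and 5 were called, and the strongest called cluster outside the window was centred on bases 1276 and 1272 of the 3′UTR.

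Hdac11, Chd5 and Actb also appear in the study, Actb as a control. By PCR of RNA pulled down with IGF2BP3 from testes, the paper reports enrichment of the Hdac11, Dot1l and Chd5 transcripts. That assay measures transcripts rather than clusters, so it is another measure than the calls given here. Hdac11, a histone deacetylase, had no member in either replicate: none of its 7 and 5 called clusters was centred before base 1229 of the 3′UTR, and the strongest were at bases 1285 and 1283. Actb, the cytoskeletal actin, had no member either, and none of the 23 and 18 clusters on its mRNA was called. Its strongest 3′UTR clusters, at bases 614 and 609, had log2(fold change) values of 1.75 and 1.89. Their −log10(P value) was 21.3 and 35.4, so they fell short of the fold threshold alone. Chd5, a chromatin remodeller of spermatids, had 2 members in each replicate and none was called. On its whole mRNA, 1 of 66 clusters was called in replicate 1 and 2 of 65 in replicate 2. Those of replicate 2 were centred on bases 333 and 923 of the 3′UTR. The member nearer the stop codon had a log2(fold change) of 0.10 in replicate 1 and −0.13 in replicate 2, and the other had −0.09 and −0.08. An intron splits the window of Chd5, and the centres of its members are coding in another transcript of the gene.

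The strongest sites by the smaller −log10(P value) of the replicates were in Phyhipl, St6galnac2, Gng5, Gabarap, 1700028J19Rik, Slc2a3 and Tbp. Phyhipl led, with 272 IP and 46 SMInput reads in replicate 1 and a log2(fold change) of 3.33 there and 3.28 in replicate 2, where the −log10(P value) was listed at its highest value of 400. St6galnac2, a sialyltransferase, had 206 IP and 27 SMInput reads at its strongest site in replicate 1 and 166 and 46 in replicate 2, with log2(fold change) values of 3.69 and 3.70. This site follows the stop codon of only 1 of the 2 annotated St6galnac2 genes. It overlaps an exon of the other, whose window lies further downstream, at chr11:116677414-116677513 on the minus strand. All clusters on the St6galnac2 mRNAs were called, so the sites near the stop codons lie among called clusters over the whole locus. Gabarap, whose protein tethers cargo to autophagosomes, had log2(fold change) values of 3.51 and 4.16 at clusters whose centres are coding in another transcript of the gene. Its second pair, centred on base 95 in both replicates, had 3.46 and 3.65 and was called in both. The centres of that pair are not coding in another transcript. For 1700028J19Rik the values were 3.30 and 3.96.

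Slc2a3 encodes the glucose transporter GLUT3, and its site had 177 IP and 44 SMInput reads in replicate 1 and 185 and 130 in replicate 2, for log2(fold change) values of 2.77 and 2.36. Tbp, the TATA-binding protein, had 99 IP and 8 SMInput reads in replicate 1 (log2(fold change) 4.39) and 83 and 31 in replicate 2 (3.27). Gng5, a G-protein gamma subunit, had the largest fold changes of this group, 5.60 and 5.71 on the log2 scale, with 114 IP and 4 SMInput reads in replicate 1. Its clusters stopped at base 14 after the stop codon, the last base before an intron that other basic transcripts with the same stop codon splice out. Gng5 was the only one of the 131 genes with such a junction inside the window, beside 140 of all 15404 (0.909%).

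Among sites with at least 5 SMInput reads in each replicate, the smaller log2(fold change) was largest for Hoxa4, at 3.93 in replicate 1 and 4.38 in replicate 2. Hoxa4, a homeobox gene, had 63 IP and 7 SMInput reads in replicate 1 and 58 and 10 in replicate 2. Cnot4, the E3 ubiquitin ligase associated with CCR4-NOT, had 3.99 and 3.91, and 31 of 43 clusters on its mRNA were called in replicate 1 and 23 of 30 in replicate 2. Ccdc50 had 3.73 and 3.85, from 39 and 24 IP reads against 5 and 6 SMInput reads. On its mRNA 2 of 26 clusters were called in replicate 1 and 4 of 22 in replicate 2, so few clusters besides its site were called. Scamp1, a secretory carrier membrane protein, had 3.57 and 3.46, and 2 of 17 clusters on its mRNA were called in replicate 1 and 9 of 20 in replicate 2. Lsm2, a part of the ring that binds the end of U6 RNA, had 3.66 and 3.43. Git1, an ARF GTPase-activating protein, had 3.48 and 3.39, and 11 and 15 further called clusters in its 3′UTR.

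Genes with members without enrichment form the other extreme. In 13 genes an overlapping pair of members had no enrichment, with log2(fold change) values of 0 or less in both replicates: 1700029H14Rik, Bap1, Ccdc28a, Chd5, Cnot10, Dusp15, Ehbp1l1, Ift22, Man2a1, Sdf2, Spata1, Tctn1 and Zfp219. The lowest single value was −1.15, for Tctn1 in replicate 2, where replicate 1 gave −0.46. For 1700029H14Rik the values were −0.82 and −0.47, and for Ehbp1l1 −0.71 and −0.47. The list holds Bap1, a deubiquitinase of histone H2A, at −0.13 and −0.03, and Cnot10, a CCR4-NOT subunit, at −0.11 and −0.06. Ift22 and Tctn1 serve the cilium, with values of −0.52 and −0.15 for Ift22.

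The replicates differed most, among well-covered pairs, at Prdx6b, Prkar1a, Dot1l and Hsf2. Prdx6b had 62 IP and 6 SMInput reads in replicate 1 (log2(fold change) 4.13) and 42 and 39 in replicate 2 (1.95), so that only replicate 1 called it. Prkar1a, a regulatory subunit of protein kinase A, had a pair at 0.14 and 2.07, but those clusters overlapped by few bases, with centres at bases 8 and 78. Its better matched clusters were closer, at 0.14 and 0.44 for bases 8 and 11, and at 1.83 and 2.07 for bases 97 and 78. At Dot1l, single clusters of replicate 1 at 4.07 and 3.96 met a wider cluster of replicate 2 at 2.15. Hsf2, a heat shock transcription factor, went the other way, with 2.76 in replicate 1 and 4.60 in replicate 2, and was called in both. The standard deviation of the log2 difference over the 338 well-covered pairs was 0.614.

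Lists of genes were read against the 0.850% of all 15404 genes that were called in both replicates. Among histone modifiers and chromatin remodellers, 1 of 53 genes was called in both, Dot1l, and members were found for 16 genes in replicate 1 and 21 in replicate 2. The median log2(fold change) of these members was 0.93 and 0.89, below the 1.35 and 1.59 of all members. In replicate 1, 6 of the list's 22 members were called, 5 of them on Dot1l. In replicate 2, 5 of its 24 members were called, 3 of them on Dot1l. Brdt, Kdm3a and Kdm6a were called in a single replicate. Among round spermatid transcription genes, 3 of 16 were called in both, with a median of 2.03 and 2.34 over members. These were Hsf2, Hsf5 (2.06 and 2.80) and Tbpl1 (2.96 and 3.01), and Tbpl1 encodes the TBP-related factor needed in round spermatids. Tbp and its relative Tbpl1 thus both carried a site in the window in both replicates.

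Among acrosome genes, 2 of 12 were called in both, and the members of the list had medians of 1.86 and 1.11 on the log2 scale. Agfg1, needed for acrosome formation, had 2.76 and 2.59 at its site, and Cyb5r4, a cytochrome b5 reductase, had 2.76 and 2.14 on only 8 IP reads in replicate 1 and 11 in replicate 2. Among genes of ubiquitin conjugation and the proteasome, 1 of 27 was called in both, Ube2q1, at 2.64 and 3.04, and the list's members had medians of 2.14 and 2.21. None was called in both among 17 m6A writers, erasers and readers, 36 genes of germ-cell mRNA storage and translation, 19 of the sperm flagellum, 15 of meiotic chromosomes, 14 somatic markers and 7 ribosomal proteins. The m6A list had Hnrnpa2b1 and Ythdf2 called in a single replicate, and the storage list Dazl and Piwil2. For mRNA storage, members were found in 24 and 17 genes, with medians of 0.79 and 0.85 on the log2 scale, low beside all members. These lists are small, and no test was made on them.

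Markers show which mRNAs the window could not see. All 8 spermatid markers, Prm1 and Tnp1 among them, had clusters in both replicates, but each has a 3′UTR shorter than 300 bases and none could hold a member. Prm1 had a 3′UTR of 158 bases and up to 358 and 639 SMInput reads in a cluster. Of the 6 spermatocyte markers 3 could hold a member, as could 3 of 6 for Sertoli cells, 3 of 6 for Leydig cells, 3 of 3 for peritubular cells and 1 of 3 for macrophages. None of the 5 members of replicate 1 and the 5 of replicate 2 in these markers was called, numbers too small to set against the 13.8% and 24.4% of all members. Somatic mRNA was present, with up to 319 and 521 SMInput reads in a cluster of the Leydig marker Insl3 and up to 218 and 393 for the Sertoli marker Clu. These 2 were the highest of the somatic markers. Cldn11 reached 66 and 117 reads and Acta2 36 and 38, but Star only 3 and 8, Tagln 7 and 9, and Adgre1 2 and 2. The Sertoli marker Rhox5 and the macrophage marker Cd68 had no cluster in replicate 2. The part of the somatic cells in the results was not tested.

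The sequence of the 100 bases was compared between the 131 genes called in both replicates, the 725 genes with members in both replicates and calls in neither, and all 15404. GGAC, the core of the commonest m6A context, was in 35.1% of the called windows (27.5% to 43.6%), 36.3% of the uncalled windows (32.9% to 39.8%) and 35.3% of all. GAACA, another m6A context, was in 7.63%, 8.97% and 11.0%, and AAACC in 11.5%, 7.45% and 9.82%. For these contexts the called windows were not set apart beyond their counting error. Of letters known from IGF2BP binding, CATT was in 38.2% (30.3% to 46.7%), 29.5% (26.3% to 32.9%) and 33.6%, ACACA in 13.0%, 8.00% and 13.0%, and GGCA in 23.7% (17.2% to 31.6%), 29.1% (25.9% to 32.5%) and 34.0%. GGCA was thus below its share of all windows in called and uncalled windows alike, and the interval of the called windows covers the share of the uncalled ones. The Pumilio motif TGTANATA was in 1.53%, 1.24% and 1.36%, and ATTTA, the core of AU-rich elements, in 6.11%, 7.86% and 10.8%. Motifs were read on the transcript strand alone, and a match marks letters, not a methylated base.

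Base composition and stop codon use varied between the groups. Median GC content was 48% in called windows, 52% in uncalled windows and 49% in all, and T made up 29.3%, 26.9% and 26.1% of the bases. TGA was the stop codon of 38.2% of the called genes, 49.9% of the uncalled and 49.0% of all, and TAA of 33.6%, 23.9% and 27.3%. The median 3′UTR length was 1061 bases in called genes, 1044 in uncalled genes and 1224 in all. The last exon junction lay within 100 bases before the stop codon in 34.4% and 34.8% of the called and uncalled genes and in 23.1% of all. Differences between these shares were not tested. An intron in the 3′UTR was annotated for 3.82% of the called genes, 8.97% of the uncalled and 4.72% of all.

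Stretches of 30 bases around the stretch shared by both replicates are given as examples. They were picked in part by their motifs and do not stand for the sites at large. They are read 5′ to 3′ on the transcript strand of GRCm38/mm10, with matches to the motifs above in capitals. Of 22 stretches written for the strongest sites and for the listed genes, 6 held GGAC and 10 held none of the motifs.
Dot1l: gccGGACatggagccactgtgaatcggcgg
Tbp: gatggtacagttggtgaGGACactcagtta
Scamp1: tgtttccttaGGACtgtatctttttctcca
Lsm2: aacttgacgtcctactgaGGACaaGAACAc
St6galnac2: tcacacctattttGGACcggAAACCtctgc
Hoxa4: tgccctactcatctcctgctcctgtcctca
Cnot4: caggatttgtcccaccctgttccccctcag
Gng5: ctttttgtagtcatctatcttgaggtaagt
Stretches of Dot1l (chr10:80793588-80793617, plus strand), Tbp (chr17:15516852-15516881, plus), Scamp1 (chr13:94203949-94203978, minus), Lsm2 (chr17:34985586-34985615, plus) and St6galnac2 (chr11:116679958-116679987, minus) are shown because they hold GGAC. The St6galnac2 site shown overlaps an exon of the other gene annotated at its locus. Hoxa4 (chr6:52190279-52190308, minus) and Cnot4 (chr6:35023079-35023108, minus) are shown because they are strongly enriched and hold none of the motifs. Gng5 (chr3:146503376-146503405, plus) spans the stop codon and the exon edge where its clusters end. The Dot1l stretch covers bases 74 to 103 after the stop codon and is centred on its most enriched pair. That pair takes only chr10:80793600-80793606, at 4.64 in replicate 1 and 2.99 in replicate 2 on the log2 scale. The GGAC of the stretch lies before that pair, in called clusters ending at 80793599, at 4.07 in replicate 1 and 2.15 in replicate 2.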

How the data were processed

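The authors trimmed adapters, filtered out ribosomal reads, mapped to mm10, removed PCR duplicates and called clusters, and deposited a −log10(P value) and a log2(fold change) of IP over SMInput per cluster. Those comparisons, by chi-square or Fisher's exact test, are the authors' own, with 0 as the lowest value, given also to some clusters with a log2 ratio slightly above 0, and 400 as the highest. Read numbers were recovered as the whole numbers that return both values, for 99.97% and 99.99% of the clusters between 0 and 400. They were not recovered for clusters at 0 or 400, and an SMInput number of 1 may stand for 0. Recovery, overlap and the blocked test were tested on simulated data.

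Transcripts came from GENCODE M21 basic, 1 per gene, by longest coding sequence, then longest transcript, then lowest identifier. Of 21951 models, 21736 had an annotated stop codon. A cluster was placed by the middle of its start and end. Python 3.11.15, numpy 2.4.6, pandas 2.3.3, scipy 1.17.1 and statsmodels 0.14.6 were used. Members and lists (10 lists, 343 genes) were chosen with earlier results of these data known.

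Replicates pair because the labels number IP and SMInput alike and describe the input as kept from the same lysate. The replicate block was a Cochran-Mantel-Haenszel test over 69163 overlapping pairs with recovered reads, Benjamini-Hochberg adjusted over them, called at an odds ratio of at least 4 and an adjusted p below 0.05. It takes reads as units. With samples as units, 2 against 2 and the pairing set aside, an exact permutation test cannot go below p = 0.333. Keeping the pairs leaves fewer arrangements and a higher limit, and no such test was made. Alternatives covered thresholds, window, overlap, 3′UTR length, read numbers, joined clusters, neighbouring genes and other transcripts.

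Named genes were 4 that appear in the study (Dot1l, Hdac11, Chd5, Actb), the 8 annotated genes called in both with the largest smaller −log10(P value), the 8 with the largest smaller log2(fold change) among sites with at least 5 SMInput reads in each replicate, genes at or below 0 in both, the 5 pairs that differed most between replicates with at least 20 IP and 5 SMInput reads in each, and listed genes called in both. The genes at or below 0 were to be the 5 with the most IP reads, but such clusters give no read numbers, so all 13 were named.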

Additional observations from a re-analysis of the deposited data

How the results depend on the processing

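The mean share of members called over both replicates was 19.1%, and 4.87% at thresholds of 3, the only alternative that moved it beyond the spread between replicates. Each replicate alone gave 13.8% to 24.4%, and the other alternatives 16.4% to 23.3%. The 131 genes called in both replicates became 31 at thresholds of 3, 51 with a window of 50 bases, 319 with one of 200 bases, 68 with 3′UTRs of at least 1000 bases and 253 with the replicate block, a test over both replicates that also has other thresholds. Each replicate alone gave 349 to 517 genes. The other alternatives gave 128 to 136. Leaving out clusters on exons of other genes (128), leaving out centres that are coding in another transcript (131) and taking members with 20 to 49 reads (21.0%) were chosen after seeing the data. The median log2(fold change), 1.47 over both replicates, was 1.42 with at least 10 reads and 1.35 to 1.59 in each replicate alone. No motif share moved beyond its interval in windows centred on the strongest member. The causes of these differences were not tested. Depth limits weak sites: with few SMInput reads a fold change is coarse, and 2 replicates give only a poor estimate of the variation between samples.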

Other observations

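Thresholds of 3 left 31 genes with a called site just after the stop codon in both replicates. An example, chosen after its values were seen, is Ppp3r2, the testis form of the calcineurin regulatory subunit. Its site had 53 IP and 10 SMInput reads in replicate 1 (log2(fold change) 3.17) and 27 and 12 in replicate 2 (3.02).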
